A study of Mus musculus with 24 samples.

Results

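The change from d0 to d3 of adipogenic differentiation was compared between 2 kinds of primary mouse precursor cell that had received a non-targeting siRNA (siCtrl), so that the comparison describes what the depots do differently before any gene is knocked down. It rests on 12 of the 24 libraries of the series, chosen by their siRNA label, with 3 libraries in each of 4 groups: 1°BAT siCtrl d0, 1°BAT siCtrl d3, 1°vWAT siCtrl d0 and 1°vWAT siCtrl d3. The 1°BAT cells were stromal-vascular precursors from interscapular brown fat and the 1°vWAT cells those from perigonadal visceral fat, both from young male wild-type C57BL/6 mice, and the other 12 libraries hold the same depots and days with an siRNA against the lncRNA *H19* (siH19). All 12 control cultures were nucleofected with siCtrl and used 48 to 72 h later. From confluence, the labels give insulin, dexamethasone, rosiglitazone and IBMX for both depots, with indomethacin and triiodothyronine for 1°BAT. The paper's methods name only the white depots beside IBMX, so which of the shared agents the 1°BAT cells received is not settled. After 48 h of induction the vWAT cultures were kept in rosiglitazone and the BAT cultures in triiodothyronine. Depot and medium therefore cannot be told apart at d3, and depot also coincides with the submitters' library set (MB-3 for BAT, MB-4 for vWAT). Brown fat of several mice may have been pooled for a culture, and neither the labels nor the methods say whether the 3 replicates of a group are separate cell isolations, so the p-values measure the spread between these libraries, which may be technical.

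White adipocytes store triglyceride in a single large droplet, whereas brown adipocytes hold many small droplets and dense mitochondria whose inner membrane carries UCP1, a protein that lets protons return without making ATP and so turns fuel into heat. In both lineages a cascade of transcription factors that ends in PPARG and C/EBPα switches on lipid genes while precursor, matrix and contractile genes are switched off. In brown cells PGC1A, PPARA and ERRα act on top of this cascade and raise thermogenic and mitochondrial genes.

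The measure used throughout is the interaction estimate, the d3 minus d0 difference in 1°BAT minus the d3 minus d0 difference in 1°vWAT, on the scale of log2(FPKM + 1). FPKM correct the fragments of a gene for transcript length and for the mapped total of the library. A positive estimate means that a gene rose more, or fell less, in 1°BAT, and the added 1 makes the estimate understate the change of genes with low FPKM. Of 49452 genes in the table, 14111 were at 1 FPKM or more in 3 or more of the 12 libraries and were tested with limma. Of the tested genes 337 (2.39%) met this minimum through the libraries of 1 group alone, and such a gene had to differ between the groups. The share was higher in some of the gene lists below. Such genes made up 2 of 19 brown fat effectors and 2 of 9 endothelial markers. They made up 3 of 23 developmental transcription factors and 3 of 35 Wnt pathway genes. A gene is said to be called, or to have risen, fallen or changed, where its Benjamini-Hochberg adjusted p over all tested genes was under 0.05. Values after ± are standard errors of an estimate with 3 libraries per group.

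The depot labels were checked against known positional and lineage genes. *Lhx8*, a homeobox gene of the brown lineage, was at 10.7, 12.7 and 11 FPKM in 1°BAT d0 and 12.8, 12.3 and 10.9 FPKM in 1°BAT d3, against no more than 0.0734 FPKM in any 1°vWAT library. *Wt1*, a visceral fat and mesothelial gene, was at 33.3, 32.4 and 36.7 FPKM in 1°vWAT d0 and 27.6, 28.8 and 27.0 FPKM in 1°vWAT d3, against no more than 0.283 FPKM in any 1°BAT library. Neither interaction estimate was called (0.06 ± 0.12 and 0.19 ± 0.12), so these depot marks were separated by depot at both days. The 12 libraries summed to 710794 to 826036 FPKM and held 12311 to 13125 genes at an FPKM of at least 1. Their relative depth, read from the steps between low values, was 0.914 to 1.00 in 1°BAT and 1.05 to 1.18 in 1°vWAT, and the number of fragments is unknown. Each library listed 10 to 27 genes at 0 although their median was at least 5 FPKM, so an entry of 0 is reported as listed at 0 and not as absence.

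The depots differed in their day change for 7473 of the 14111 genes tested, and for 6358 with a minimum fold change of 1.3. The interaction was called for 3514 genes as higher in 1°BAT (24.9% of the genes tested) and for 3959 genes as lower in 1°BAT (28.1%), 7473 genes or 53.0% in all, and the median estimate over all genes was -0.04. After trimmed-mean scaling of the libraries the split was 4106 higher and 3425 lower, with a median of 0.04. Within 1°BAT 4715 genes rose (33.4%) and 5755 fell (40.8%) from d0 to d3, and within 1°vWAT 4618 rose (32.7%) and 4457 fell (31.6%). Both day comparisons enter the interaction and share its libraries.

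Among the 7473 called genes, 4003 (53.6%) moved in the same direction in both depots, 2616 (35.0%) had a called day change in a single depot and 790 (10.6%) moved in opposite directions. Of the 2064 called genes that rose in both depots, 1841 rose more in 1°BAT, and of the 1939 that fell in both, 1624 fell more in 1°BAT. The median size of the day change over the 4003 genes was 1.43 in 1°BAT and 0.74 in 1°vWAT, and over all 14111 genes it was 0.60 and 0.41. In size, 9677 of the 14111 genes (68.6%) had the larger day change in 1°BAT. The opposite group held 240 genes that rose in 1°BAT and fell in 1°vWAT and 550 that did the reverse.

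**Figure D1:**
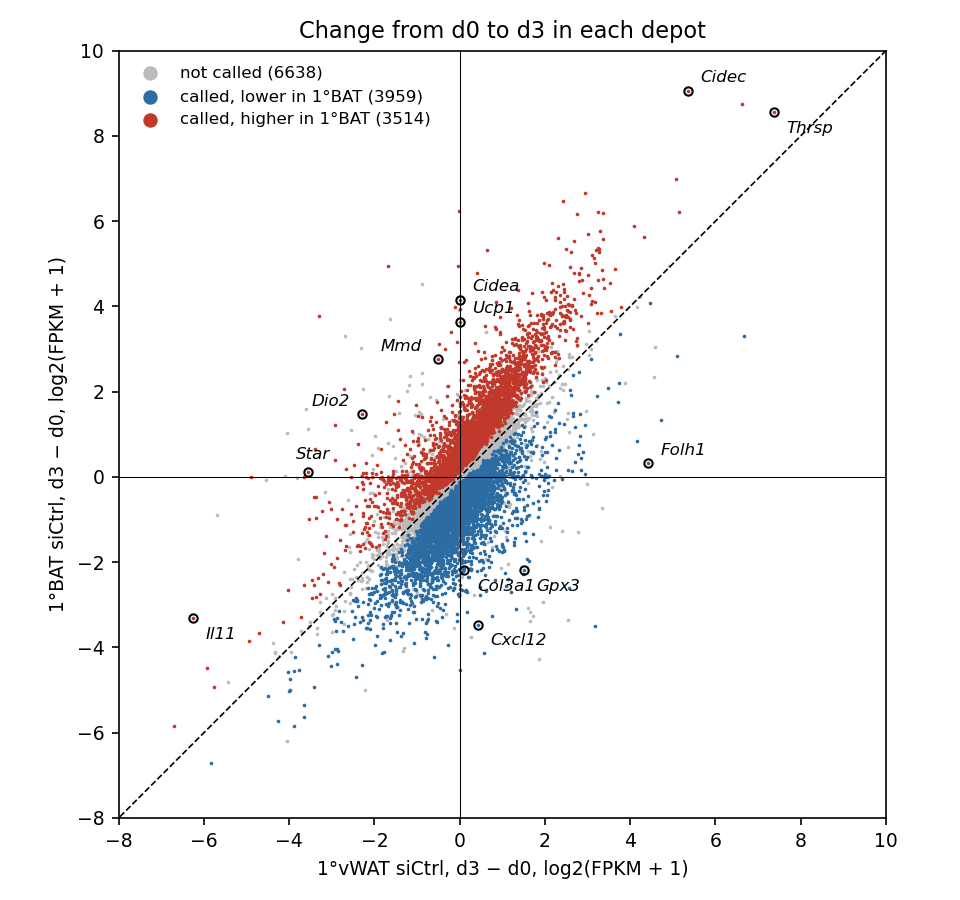
Change from d0 to d3 of each of the 14111 tested genes in 1°BAT (y axis) against 1°vWAT (x axis), both on the log2(FPKM + 1) scale, 1 point per gene, with 3514 genes called higher in 1°BAT in red, 3959 called lower in blue and the rest in grey. The dashed line marks equal change, and red points in the upper right and blue points in the lower left show the larger amplitude in 1°BAT, while circled genes are named in the text.

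Brown fat effector genes rose more in 1°BAT than in 1°vWAT. Of 19 tested members 15 were called higher and 2 lower, against 24.9% and 28.1% of all genes. The median estimate was 1.76, against -0.04 over all genes. The list median of the day change was 2.86 in 1°BAT and 0.61 in 1°vWAT, and the median gap between the depots was 0.03 at d0 and 1.70 at d3. *Ucp1*, the uncoupling protein of brown fat, was at 0.0304, 0.0307 and 0 FPKM in 1°BAT d0, at 8.84, 11.2 and 16.3 FPKM in 1°BAT d3 and listed at 0 in all 6 1°vWAT libraries. Only the 3 1°BAT d3 libraries held more than a trace, and they did not overlap any other group. The estimate for *Ucp1* was 3.64 ± 0.23. *Cidea*, which codes for a lipid droplet protein of brown adipocytes, was at 0.136, 0.0458 and 0.0496 FPKM in 1°BAT d0, 14.2, 19.5 and 21.6 in 1°BAT d3, 0.0838, 0 and 0.0432 in 1°vWAT d0 and 0.120, 0 and 0 in 1°vWAT d3. Again the 1°BAT d3 libraries stood alone, with an estimate of 4.16 ± 0.19. *Ucp1* and *Cidea* reached the minimum FPKM only through the 1°BAT d3 libraries in which they were high, so their estimates are given as descriptions, and the list counts hold them among the 19.

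Other effectors rose in both depots and more in 1°BAT. *Cox7a1*, a cytochrome c oxidase subunit of muscle and brown fat, was at 1.37, 3.93 and 1.00 FPKM in 1°BAT d0, 268, 285 and 316 in 1°BAT d3, 3.17, 1.77 and 0.872 in 1°vWAT d0 and 22.4, 18.0 and 21.3 in 1°vWAT d3. The d0 libraries of the depots overlapped and the d3 libraries did not, with day changes of 6.66 in 1°BAT and 2.95 in 1°vWAT. *Cpt1b*, the muscle-type carnitine palmitoyltransferase that admits fatty acids to mitochondria, went from 0.530, 0.383 and 1.47 to 148, 148 and 165 FPKM in 1°BAT and from 1.18, 1.53 and 1.43 to 13.6, 9.92 and 12.3 FPKM in 1°vWAT. Its d0 values overlapped between the depots, and its estimate was 4.04 ± 0.27 (limma adjusted p = 4.74e-07). *Elovl3*, an elongase of very long fatty acids that is typical of active brown fat, was at most 0.374 FPKM at d0 in either depot and reached 431, 491 and 488 FPKM in 1°BAT d3 and 128, 130 and 114 in 1°vWAT d3. The d3 groups of *Elovl3* did not overlap, and the estimate was 2.11 ± 0.12, although the gene rose in 1°vWAT too, by 6.63 on the log2 scale.

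*Dio2*, the deiodinase that activates thyroid hormone, moved in opposite directions. It was at 4.87, 4.44 and 5.71 FPKM in 1°BAT d0 and 34.4, 16.1 and 6.62 in 1°BAT d3, and at 17.6, 14.1 and 14.0 in 1°vWAT d0 and 4.20, 0.527 and 3.45 in 1°vWAT d3. The d3 libraries within each depot were far apart from each other, but the 1°BAT d3 libraries all lay above the 1°vWAT d3 libraries while the order was the reverse at d0. The estimate was 3.77 ± 0.76 (limma adjusted p = 0.00166), from a day change of 1.47 in 1°BAT and -2.30 in 1°vWAT. Among the effectors called lower was *Slc29a1*, which codes for the nucleoside transporter ENT1 and fell from 34.0, 30.2 and 28.6 to 10.8, 8.29 and 8.77 FPKM in 1°BAT, against 25.3, 27.4 and 27.8 and 29.3, 31.4 and 29.9 FPKM in 1°vWAT.

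**Figure D2:**
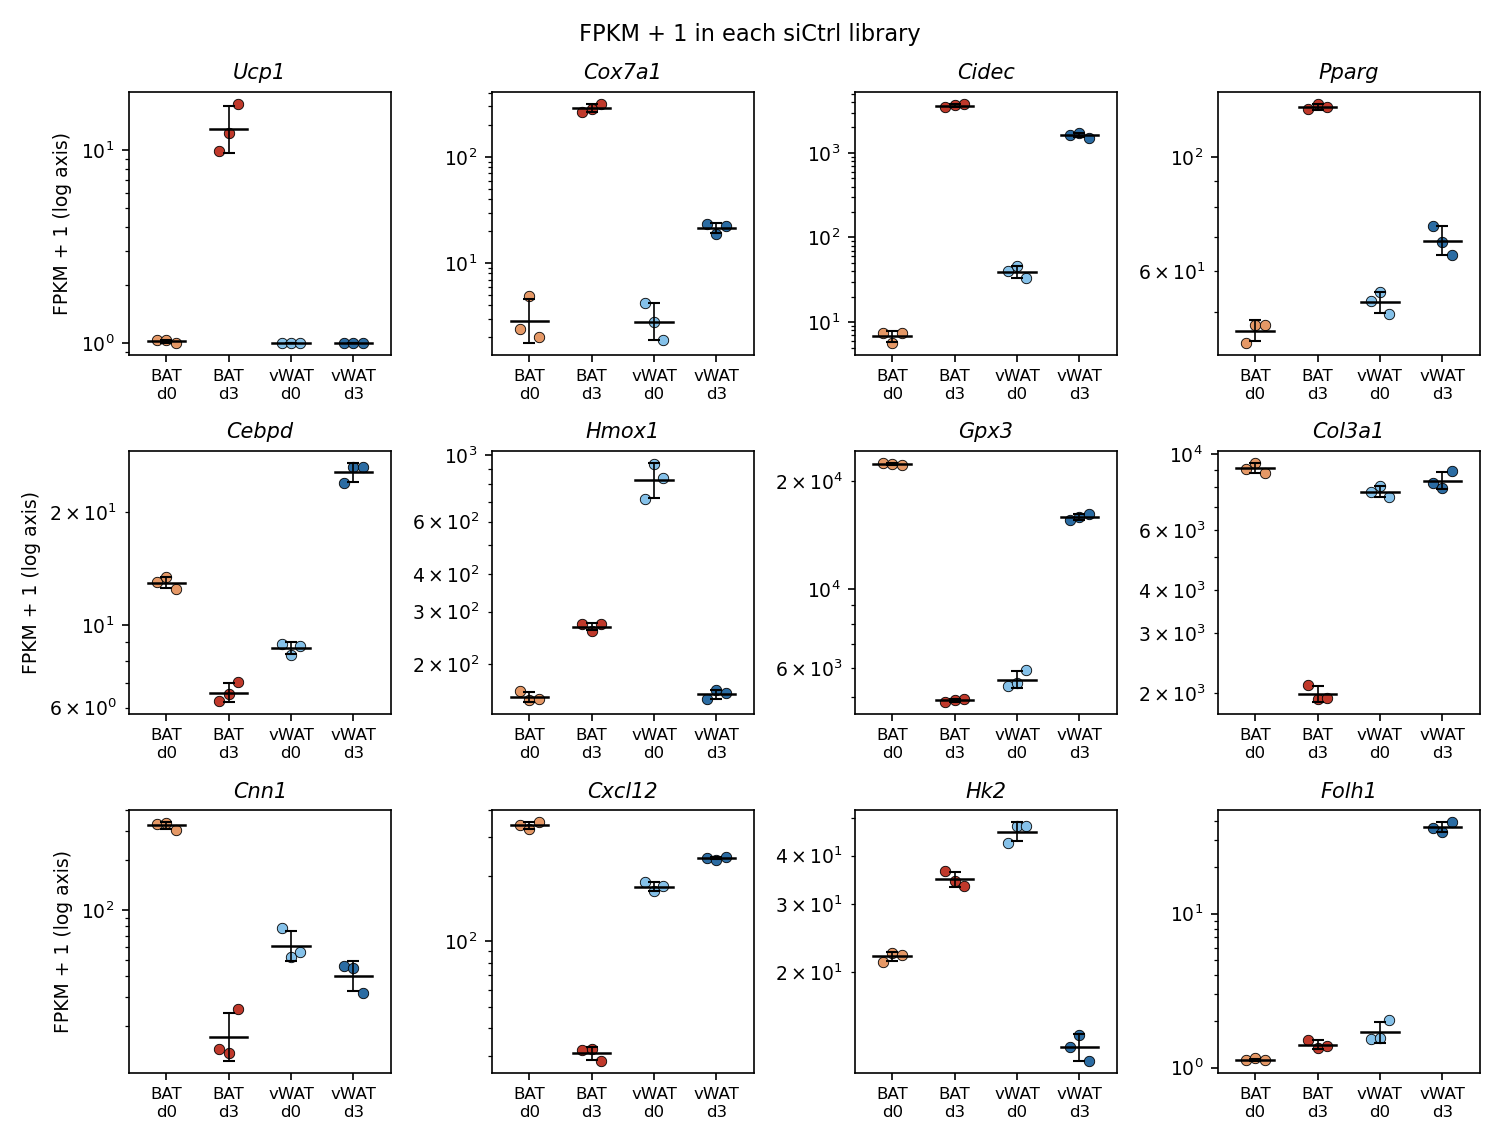
FPKM + 1 of 12 genes in each of the 12 siCtrl libraries on log axes, with 1 panel per gene, 1 point per library, the horizontal line at the mean of log2(FPKM + 1) and the bars at ± 1 SD on that scale (n = 3 per group). *Ucp1* and *Cox7a1* are highest in 1°BAT d3, *Cebpd* and *Gpx3* move in opposite directions in the depots, and *Folh1* is high in 1°vWAT d3.

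Regulators of the brown programme were called higher in 9 of 19 tested members and lower in 1, with a median estimate of 0.32, and the share called (52.6%) was close to that over all genes (53.0%). Without 1°BAT d0 replicate 1, 1°BAT d3 replicate 1 or 1°vWAT d0 replicate 3 there were 2 called lower. The coactivators and nuclear receptors of mitochondrial biogenesis were among the called genes. *Ppargc1a*, which codes for PGC1A, went from 0.658, 0.915 and 1.99 to 13.1, 15.8 and 11.6 FPKM in 1°BAT and from 0.279, 0.654 and 0.435 to 1.87, 1.68 and 2.55 FPKM in 1°vWAT. Both depots rose and the d3 groups were far apart, with an estimate of 1.71 ± 0.30 (limma adjusted p = 0.000634). *Ppargc1b* (2.17 ± 0.11), *Ppara* (2.45 ± 0.43) and *Esrra*, which codes for ERRα (1.47 ± 0.09), were called higher as well. *Esrra* was at 25.7, 26.4 and 25.4 FPKM in 1°BAT d0 and 24.7, 24.9 and 22.5 in 1°vWAT d0, ranges that lay side by side, and at 91.3, 99.5 and 97.1 and 34.8, 31.5 and 28.9 FPKM at d3.

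Lineage regulators that mark brown precursors behaved differently from these coactivators. *Ebf2*, a selector of brown precursors, was already higher in 1°BAT at d0, at 7.47, 8.51 and 8.74 FPKM against 4.17, 3.99 and 3.84 FPKM, and its estimate was 0.32 ± 0.09 (limma adjusted p = 0.0165). *Ebf3*, of the same family, was called lower (-1.05 ± 0.14), with 6.84, 7.51 and 7.68 FPKM in 1°BAT d0, 4.29, 4.45 and 5.01 in 1°BAT d3, 0.952, 1.18 and 1.33 in 1°vWAT d0 and 2.00, 1.70 and 2.23 in 1°vWAT d3. It fell in 1°BAT and rose in 1°vWAT, and the depots stayed apart at both days. *Zic1*, a transcription factor gene of brown fat, was at 3.91, 4.17 and 4.66 FPKM in 1°BAT d0 and 4.42, 2.96 and 2.78 in 1°BAT d3, was listed at 0 in every 1°vWAT d3 library and did not reach the threshold (estimate -0.17 ± 0.19, limma adjusted p = 0.474).

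Of 18 general adipogenic transcription factors 6 were called higher and 3 lower, with a median estimate of 0.06. The share called (50%) was close to the 53.0% of all genes, and the number called lower was 5 without 1°vWAT d3 replicate 3. *Pparg*, the master regulator of both fat lineages, was at 42.5, 46.2 and 46.2 FPKM in 1°BAT d0, 123, 126 and 124 in 1°BAT d3, 51.4, 53.6 and 48.6 in 1°vWAT d0 and 72.5, 67.3 and 63.6 in 1°vWAT d3. All 3 1°BAT d3 libraries were above every other library, and the estimate was 1.05 ± 0.08 (limma adjusted p = 1.06e-06). *Cebpa*, its partner, rose in both depots, from 147, 149 and 156 to 659, 677 and 632 FPKM in 1°BAT and from 120, 122 and 118 to 376, 385 and 379 FPKM in 1°vWAT. The depots did not overlap at either day, and the estimate for *Cebpa* was 0.46 ± 0.05.

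Lipogenic transcription factors started lower in 1°BAT and ended higher there. *Mlxipl*, which codes for the carbohydrate sensor ChREBP, rose from 0.735, 0.493 and 1.08 to 29.9, 30.1 and 35.5 FPKM in 1°BAT and from 5.12, 3.63 and 4.71 to 20.3, 20.7 and 20.6 FPKM in 1°vWAT. It was lower in 1°BAT at d0 and higher at d3, without overlap at either day (estimate 2.24 ± 0.19). *Nr1h3*, which codes for the oxysterol receptor LXRα, followed the same course (estimate 1.72 ± 0.27), as did *Srebf1* (0.94 ± 0.10), whose d3 values were 464, 493 and 471 FPKM in 1°BAT and 444, 394 and 397 FPKM in 1°vWAT.

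The early-acting factors took different courses. *Cebpd*, an early inducer of adipogenesis, fell from 12, 12.4 and 11.5 to 5.26, 5.51 and 6.01 FPKM in 1°BAT and rose from 7.89, 7.31 and 7.79 to 22.9, 25.4 and 25.5 FPKM in 1°vWAT. The groups did not overlap, and the depot with the higher level changed between the days (estimate -2.54 ± 0.09, limma adjusted p = 6.00e-09). *Klf4*, another early factor, fell to 8.73, 8.18 and 7.36 FPKM in 1°BAT d3 from 28.9, 28.8 and 28.6 at d0, against 36.7, 42.0 and 40.8 and 33.6, 35.3 and 33.2 FPKM in 1°vWAT. *Cebpb* was at 183, 173 and 184 and 169, 173 and 173 FPKM at d0 and d3 in 1°BAT, a difference that was not called, and fell from 90.0, 86.7 and 111 to 53.0, 60.8 and 66.4 FPKM in 1°vWAT, so that its estimate was called higher (0.59 ± 0.13, limma adjusted p = 0.00322).

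Lipid storage genes rose in both depots and more in 1°BAT. Over all genes, 24.9% were called higher and 28.1% lower. Fatty acid synthesis genes were called higher in 16 of 19 tested members and lower in 1 (median estimate 1.08, day change 3.46 in 1°BAT and 2.24 in 1°vWAT). Triglyceride synthesis and droplet coat genes were called higher in 14 of 16 and lower in 1 (median 1.66), and fatty acid uptake and lipolysis genes in 15 of 17 and lower in 1 (median 1.3). For these lists the median gap at d0 was -0.70, -0.66 and -0.66, that is lower in 1°BAT, and at d3 it was 0.35, 0.60 and 0.99. A larger rise therefore started from a lower level.

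*Scd1*, the desaturase that makes oleate, shows this course. It was at 52.1, 58.9 and 60.3 FPKM in 1°BAT d0, 508, 480 and 528 in 1°vWAT d0, 4135, 4238 and 4128 in 1°BAT d3 and 3585, 3289 and 3380 in 1°vWAT d3. The wide separation at d0 had nearly closed at d3, where the 1°BAT libraries still lay above the 1°vWAT libraries, and the estimate was 3.41 ± 0.08 (limma adjusted p = 4.61e-10). *Insig1*, a sterol sensor that holds back SREBP (2.15 ± 0.06), *Pcx*, pyruvate carboxylase (1.79 ± 0.08), and *Acacb*, the acetyl-CoA carboxylase that controls fatty acid entry into mitochondria (1.73 ± 0.22), were the next highest of this list. *Thrsp*, a lipogenic gene that responds to thyroid hormone, rose in both depots to like levels, 411, 546 and 567 FPKM in 1°BAT d3 and 414, 420 and 354 in 1°vWAT d3, which overlapped in range. Its d0 values were 0.324, 0.410 and 0.266 and 1.58, 1.40 and 1.23 FPKM, and the estimate was 1.2 ± 0.17. *Elovl5*, which elongates polyunsaturated fatty acids, was the member called lower (-0.71 ± 0.08), falling in 1°BAT and rising in 1°vWAT.

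*Cidec*, whose product fuses lipid droplets, had the largest estimate of the triglyceride synthesis and droplet coat list, which does not hold *Cidea*. It went from 6.44, 4.68 and 6.39 to 3457, 3686 and 3755 FPKM in 1°BAT and from 39.1, 44.5 and 32.3 to 1637, 1702 and 1520 FPKM in 1°vWAT. All 4 groups were separate, 1°BAT was lowest at d0 and highest at d3, and the estimate was 3.70 ± 0.17 (limma adjusted p = 3.36e-08). *Plin5*, a droplet coat protein that ties droplets to mitochondria, reached 32.6, 35.5 and 36.2 FPKM in 1°BAT d3 and 4.22, 3.36 and 3.44 FPKM in 1°vWAT d3 from no more than 0.271 FPKM at d0. *Gpat3* (2.87 ± 0.07), *Plin2* (2.46 ± 0.05) and *Plin1* (1.26 ± 0.05) were called higher too. *Gpam*, the mitochondrial enzyme for the same acylation step as *Gpat3*, was called lower (-0.37 ± 0.11, limma adjusted p = 0.0165), with 136, 132 and 122 FPKM in 1°BAT d3 and 260, 231 and 250 in 1°vWAT d3, a call that was lost after trimmed-mean scaling.

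Uptake and lipolysis genes were among the most abundant genes that rose. *Fabp4*, the fatty acid binding protein of adipocytes, went from 2006, 1906 and 2073 to 27184, 28419 and 27863 FPKM in 1°BAT and from 2530, 2519 and 2560 to 14527, 14709 and 13958 FPKM in 1°vWAT. The depot order turned between the days without overlap, with an estimate of 1.3 ± 0.05. *Acsl1*, which activates long-chain fatty acids, had an estimate of 2.84 ± 0.11. *Pnpla2* and *Lipe*, the triglyceride and diglyceride lipases ATGL and HSL, had estimates of 2.14 ± 0.08 and 2.08 ± 0.07. *Slc27a1*, a fatty acid transporter, was the member called lower (-0.39 ± 0.10) and reached 361, 324 and 328 FPKM in 1°vWAT d3 against 109, 121 and 112 in 1°BAT d3, a call that was lost when 0.1 was added in place of 1.

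Genes that burn fuel in mitochondria and peroxisomes formed the most uniform block. Fatty acid oxidation genes were called higher in 23 of 24 tested members and lower in 1 (median estimate 1.42, with 0 lower without any 1 of the 1°vWAT d3 libraries), tricarboxylic acid cycle genes in 19 of 20 (median 1.35), nuclear OxPhos subunits in 73 of 74 (median 0.98) and mitochondrial ribosome genes in 70 of 78 (median 0.70). Peroxisome genes were called higher in 27 of 32 (median 0.79) and branched-chain amino acid breakdown genes in 17 of 19 (median 0.87). Across the last 5 of these lists limma called 0 members lower, and 0 were lower at an unadjusted p under 0.05. Over all genes, 24.9% were called higher and 28.1% lower. The OxPhos subunits rose in both depots in all 74 cases, with a median day change of 2.00 in 1°BAT and 1.02 in 1°vWAT, and their median gap was -0.14 at d0 and 0.85 at d3.

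*Uqcrc2*, a core subunit of complex III, had day changes of 2.80 and 1.36 and an estimate of 1.44 ± 0.05. *Slc25a20*, the carnitine carrier of the inner membrane (1.93 ± 0.06), *Hadhb*, a subunit of the trifunctional protein of β-oxidation (1.90 ± 0.11), *Etfdh*, which passes electrons from β-oxidation to ubiquinone (1.80 ± 0.06), *Sucla2* (1.98 ± 0.08), *Pdhb* (1.81 ± 0.06) and *Ogdh* (1.74 ± 0.06) belonged to the same block. *Ehhadh*, the peroxisomal bifunctional enzyme, rose from 1.33, 1.38 and 1.32 to 66.4, 73.1 and 70.1 FPKM in 1°BAT and from 1.82, 1.85 and 2.08 to 16.7, 16.9 and 15.7 FPKM in 1°vWAT.

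Transcripts of the mitochondrial genome followed the nuclear subunits, with a median estimate of 0.81. Of 13 tested, 11 were called higher, against 24.9% of all genes. *mt-Nd1*, a complex I subunit, was at 1030, 876 and 975 FPKM in 1°BAT d0, 8336, 9265 and 8953 in 1°BAT d3, 1250, 1332 and 1303 in 1°vWAT d0 and 3806, 3610 and 3298 in 1°vWAT d3. The groups did not overlap, 1°BAT was lower at d0 and higher at d3, and the estimate was 1.74 ± 0.10. The nuclear genome holds near-identical copies of mitochondrial genes, among which reads may have been divided, so the levels of these genes are uncertain.

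Glycolysis genes were called higher in 14 of 20 tested members and lower in 1 (median 0.79, with 0 lower in 7 of 12 fits without 1 library), from a median day change of 0.76 in 1°BAT and 0.04 in 1°vWAT. *Hk2*, the insulin-responsive hexokinase, rose in 1°BAT from 20.3, 21.4 and 21.2 to 35.5, 33.4 and 32.4 FPKM and fell in 1°vWAT from 42.2, 46.7 and 46.7 to 11.8, 12.8 and 10.8 FPKM. The depot order turned without overlap (estimate 2.52 ± 0.09). *Pfkfb3*, which makes the main activator of phosphofructokinase, had an estimate of 2.61 ± 0.12, and *Gpi1*, glucose phosphate isomerase, rose in 1°BAT alone, from 178, 175 and 178 to 546, 576 and 569 FPKM, against 303, 327 and 300 and 312, 313 and 313 FPKM in 1°vWAT. Cholesterol synthesis genes had no common direction, with 9 of 22 called higher, 7 lower and a median of 0.09. Of 8 tested genes of creatine and calcium cycling 2 were called higher and 3 lower. For comparison with these lists, 24.9% of all genes were called higher and 28.1% lower.

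**Figure D3:**
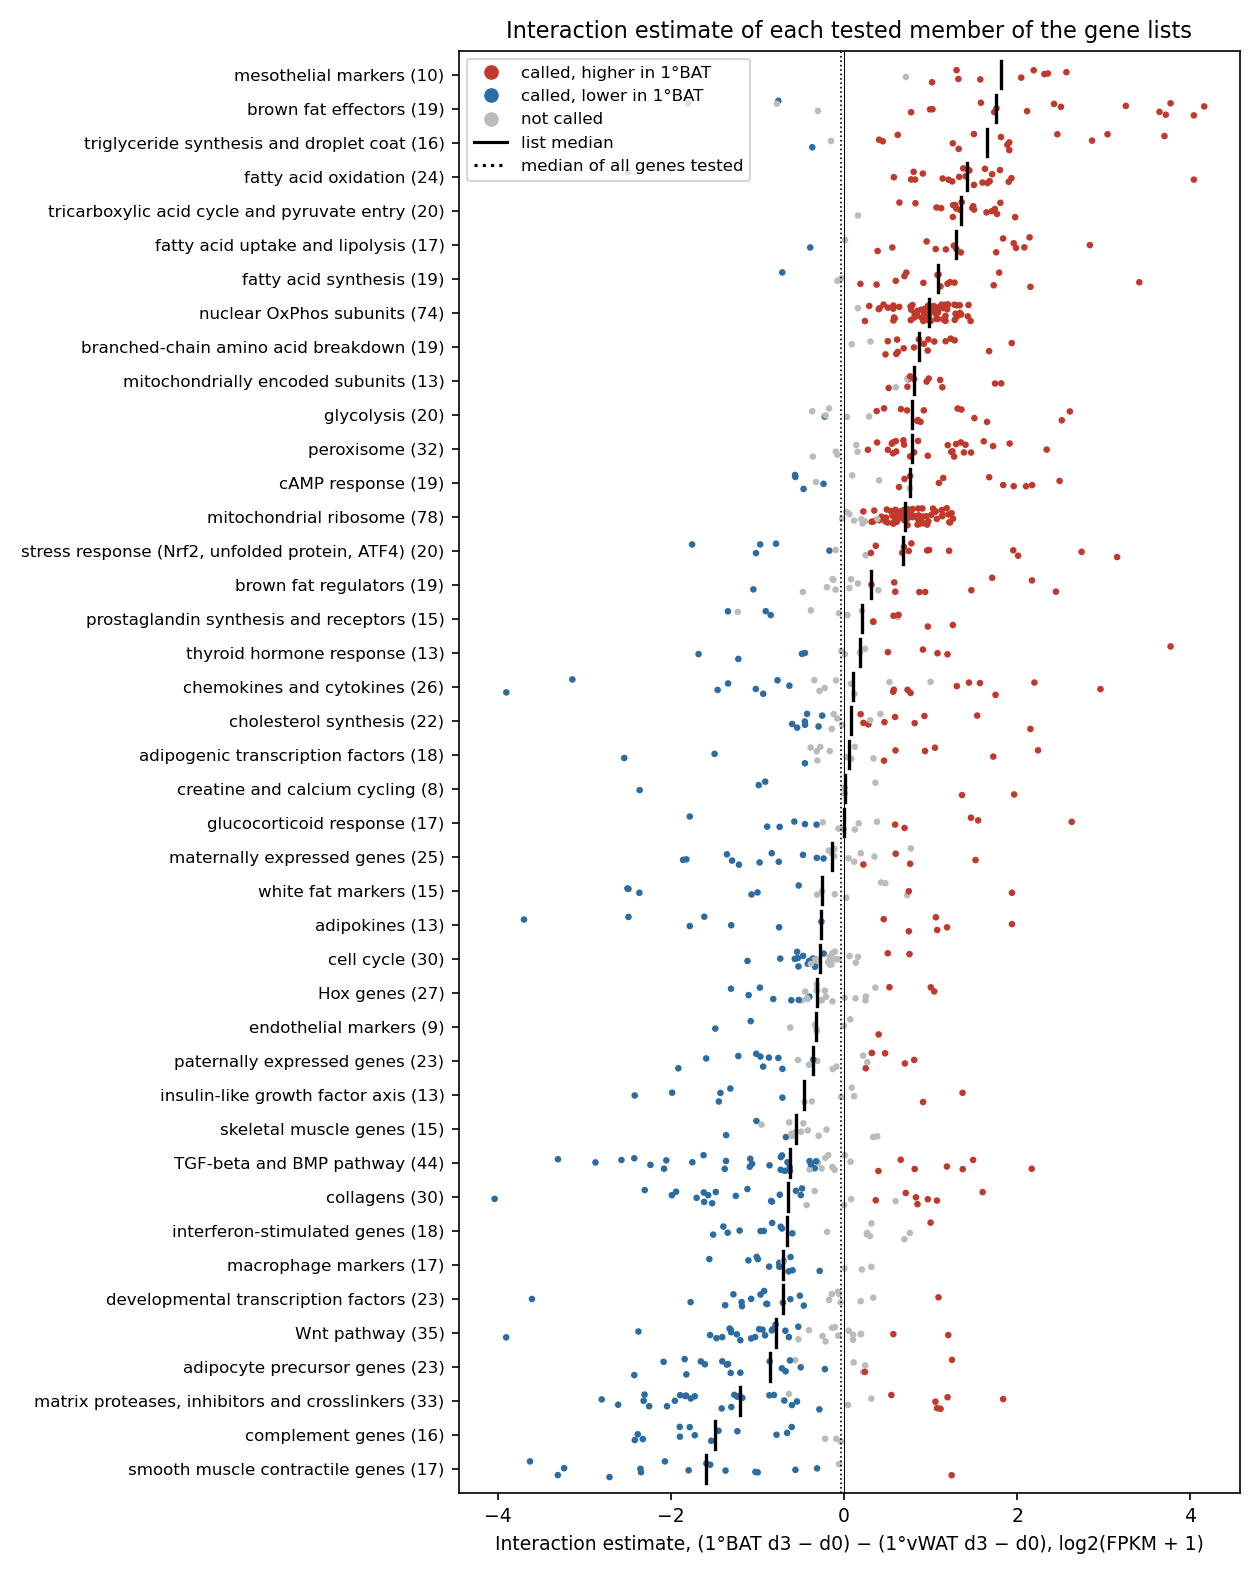
Interaction estimate on the log2(FPKM + 1) scale (x axis) of every tested member of each gene list (y axis, number tested in parentheses), 1 point per gene, red where called higher in 1°BAT, blue where called lower and grey where not called, with a black bar at the list median and a dotted line at the median of all genes, -0.04. The lists with the highest medians are mesothelial markers and brown fat effectors (1.81 and 1.76) and those with the lowest are complement genes and smooth muscle contractile genes (-1.49 and -1.59).

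White fat markers were called lower in 6 of 15 tested members and higher in 2 (median -0.26), and the share called (53.3%) was that of all genes (53.0%). Their summed FPKM was 449 to 455 in 1°BAT d0, 397 to 431 in 1°BAT d3, 708 to 729 in 1°vWAT d0 and 1140 to 1150 in 1°vWAT d3. *Agt*, angiotensinogen, fell from 114, 108 and 112 to 55.3, 62.7 and 58.1 FPKM in 1°BAT and rose from 103, 103 and 100 to 317, 300 and 300 FPKM in 1°vWAT. The depots lay close together at d0 and far apart at d3 (estimate -2.49 ± 0.06, limma adjusted p = 1.2e-09). *Wfdc21*, a white fat marker of unclear function, took the same course (-2.50 ± 0.08). *Retn*, which codes for the adipokine resistin, went against the list: it rose in both depots, from 8.31, 7.07 and 7.51 to 71.3, 83.6 and 88.1 FPKM in 1°BAT and from 105, 108 and 109 to 262, 279 and 259 FPKM in 1°vWAT, and its estimate was 1.94 ± 0.11 although the vWAT level was higher at both days. On a square root scale the call for *Retn* was lost.

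All 13 tested adipokine genes were called, 6 higher and 7 lower (median -0.26). Of all genes 53.0% were called, 24.9% higher and 28.1% lower. *Adipoq*, adiponectin, rose from 184, 213 and 222 to 1685, 1805 and 1791 FPKM in 1°BAT and from 258, 242 and 246 to 940, 950 and 908 FPKM in 1°vWAT, without overlap between the depots at either day (estimate 1.19 ± 0.09). *Gpx3*, a secreted glutathione peroxidase, was among the most abundant transcripts, with 22464, 22286 and 22131 FPKM in 1°BAT d0, 4842, 4890 and 4942 in 1°BAT d3, 5358, 5474 and 5925 in 1°vWAT d0 and 15521, 15921 and 16201 in 1°vWAT d3. The 3 libraries of each group lay close together, the depots exchanged order between the days, and the estimate was -3.70 ± 0.05 (limma adjusted p = 2.33e-11). *Apoe*, the lipoprotein gene (-1.61 ± 0.05), and *Cfd*, the protease adipsin (-1.78 ± 0.11), fell in both depots and more in 1°BAT.

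Precursor, matrix and contractile genes formed the counterpart. Adipocyte precursor genes were called lower in 17 of 23 tested members and higher in 2 (median -0.86, with 1 higher in 9 of 12 fits without 1 library), collagens lower in 18 of 30 and higher in 7 (median -0.65), and matrix proteases, inhibitors and crosslinkers lower in 24 of 33 and higher in 6 (median -1.21). For comparison, 28.1% of all genes were called lower and 24.9% higher. The median day change of the precursor list was -1.81 in 1°BAT and -0.78 in 1°vWAT, and its median gap was 0.12 at d0 and -1.09 at d3.

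*Pdgfrb*, a receptor of perivascular precursors, fell from 114, 116 and 116 to 19.1, 16.2 and 18.2 FPKM in 1°BAT and from 71.4, 71.2 and 67.7 to 48.4, 45.8 and 48.5 FPKM in 1°vWAT. The 1°BAT level was the higher at d0 and the lower at d3 (estimate -2.08 ± 0.08, limma adjusted p = 8.56e-09). *Pdgfra*, the related receptor of fat precursors, was lower in 1°BAT at both days and its gap widened (-1.35 ± 0.08). *Ly6a*, which codes for the stem cell antigen SCA1, fell in 1°BAT from 552, 579 and 499 to 269, 239 and 248 FPKM and rose in 1°vWAT from 331, 351 and 281 to 500, 523 and 582 FPKM (estimate -1.84 ± 0.13). *Dcn*, a collagen-binding proteoglycan, fell in 1°BAT from 352, 337 and 361 to 99.6, 101 and 92.8 FPKM and was at 739, 809 and 783 and 786, 768 and 761 FPKM at d0 and d3 in 1°vWAT, which overlapped (estimate -1.82 ± 0.06). *Dlk1*, the preadipocyte inhibitor of adipogenesis, fell alike in both depots, by 1.99 and 2.21 on the log2 scale, and its interaction was not called (0.22 ± 0.21, limma adjusted p = 0.406). *Cd24a*, a marker of early precursors, was called higher (1.25 ± 0.15).

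*Col3a1*, a fibrillar collagen of loose connective tissue, was at 9045, 9430 and 8810 FPKM in 1°BAT d0, 2109, 1919 and 1936 in 1°BAT d3, 7744, 8071 and 7488 in 1°vWAT d0 and 8260, 7969 and 8904 in 1°vWAT d3. The 1°vWAT libraries of both days overlapped, while the 1°BAT libraries dropped below all others at d3 (estimate -2.30 ± 0.07, limma adjusted p = 3.18e-09). *Col28a1*, a collagen of basement membranes around nerves, fell from 41.5, 42.8 and 45.4 to 3.73, 3.35 and 3.66 FPKM in 1°BAT and rose from 26.0, 24.5 and 25.2 to 43.5, 42.5 and 44.7 FPKM in 1°vWAT, which gave an estimate of -4.04 ± 0.07. *Col15a1*, a basement membrane collagen, was called higher (0.83 ± 0.08), with a day change of 0.14 in 1°BAT and -0.69 in 1°vWAT.

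*Lox*, lysyl oxidase, which crosslinks collagen, went from 2059, 2089 and 2066 to 287, 241 and 283 FPKM in 1°BAT and from 836, 795 and 878 to 537, 543 and 548 FPKM in 1°vWAT. The depot order turned without overlap, with an estimate of -2.31 ± 0.08. *Plod2*, a lysyl hydroxylase (-2.61 ± 0.07), and *Mmp23*, a membrane-bound metalloproteinase (-2.80 ± 0.10), were also called lower. *Tgm2*, a transglutaminase that crosslinks matrix proteins, was called higher (1.2 ± 0.10). *Mmp3*, stromelysin, was called higher (1.84 ± 0.07), with 13.1, 13.0 and 12.6 FPKM in 1°BAT d0, 24.7, 23.6 and 23.4 in 1°BAT d3, 153, 152 and 138 in 1°vWAT d0 and 70.0, 74.0 and 76.2 in 1°vWAT d3.

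Smooth muscle contractile genes had the lowest median estimate of all lists (-1.59). Of 17 tested members 15 were called lower and 1 higher, against 28.1% and 24.9% of all genes. Their summed FPKM fell from 6923 to 7377 in 1°BAT d0 to 895 to 1174 in 1°BAT d3, and was 3843 to 4195 in 1°vWAT d0 and 1967 to 2308 in 1°vWAT d3. *Cnn1*, calponin, was at 329, 333 and 304 FPKM in 1°BAT d0, 13.6, 12.8 and 24.2 in 1°BAT d3, 76.3, 50.9 and 54.9 in 1°vWAT d0 and 44.7, 43.4 and 30.5 in 1°vWAT d3. The 1°BAT libraries were above all others at d0 and below all others at d3 (estimate -3.63 ± 0.33, limma adjusted p = 5.23e-06). *Myl9* (-3.31 ± 0.27) and *Actg2* (-3.23 ± 0.21), a myosin light chain and an actin of smooth muscle, shared this order. *Des*, the intermediate filament desmin, was the member called higher (1.24 ± 0.25), as it fell in 1°vWAT and was not called in 1°BAT. In whole cultures, fewer cells of a type and less RNA per cell cannot be told apart.

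Genes of the TGF-β, BMP and Wnt pathways, which act on precursor cells, were mostly called lower, against 28.1% lower and 24.9% higher over all genes. Of 44 tested genes of the TGF-β and BMP pathway 28 were called lower and 7 higher (median -0.63), and of 35 tested Wnt pathway genes 21 were called lower and 2 higher (median -0.79). The Wnt genes called higher numbered 0 without 1°vWAT d0 replicate 1 or 2 and 1 without 1°vWAT d0 replicate 3. *Inhbb*, the activin B subunit, fell from 44.9, 44.6 and 43.2 to 6.54, 5.22 and 6.54 FPKM in 1°BAT and rose from 31.1, 26.5 and 27.2 to 44.2, 43.8 and 44.4 FPKM in 1°vWAT. At d3 the depots were far apart (estimate -3.30 ± 0.11, limma adjusted p = 4.89e-09). *Tgfb3* was at 80.3, 78.3 and 77.7 FPKM in 1°BAT d0 and 6.41, 6.37 and 6.89 in 1°BAT d3, where it came close to the 7.85, 8.30 and 7.30 FPKM of 1°vWAT d3, and its estimate was -2.87 ± 0.08. *Tgfb2*, named by the study as a precursor gene, was called lower too (-2.42 ± 0.18). *Gdf6*, a BMP family ligand found almost only in 1°vWAT, was called higher (2.17 ± 0.10) because it fell there from 18.5, 18.6 and 19.6 to 2.96, 2.64 and 2.62 FPKM, against no more than 0.437 FPKM in any 1°BAT library.

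*Sfrp1*, a secreted Wnt antagonist, fell in 1°BAT from 294, 301 and 297 to 44.4, 42.4 and 49.2 FPKM and rose in 1°vWAT from 113, 97.3 and 105 to 246, 241 and 247 FPKM. The groups did not overlap and the depot order turned (estimate -3.90 ± 0.08, limma adjusted p = 3.21e-10). *Rspo1*, an enhancer of Wnt signalling, rose in 1°vWAT from 3.75, 4.04 and 4.23 to 18.9, 21.2 and 15.1 FPKM and was under 1 FPKM in every 1°BAT library (estimate -2.38 ± 0.18). In the insulin-like growth factor axis, 6 of 13 tested genes were called lower and 2 higher, against 28.1% and 24.9% of all genes. *Igfbp4* (-2.42 ± 0.06) and *Igfbp6* (-1.99 ± 0.08), binding proteins that limit IGF action, fell in 1°BAT and rose in 1°vWAT, and *Irs2*, an insulin receptor substrate, was called higher (1.37 ± 0.13).

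Secreted immune genes split by class. Complement genes were called lower in 13 of 16 tested members and higher in 0 (median -1.49, with 0 higher at an unadjusted p under 0.05 in limma), while chemokines and cytokines had 10 higher and 8 lower of 26 (median 0.10), against 24.9% higher and 28.1% lower over all genes. The number of chemokines and cytokines called higher was 6 without 1°vWAT d0 replicate 3 or 1°vWAT d3 replicate 1. On a square root scale 1 complement gene was called higher. *Serping1*, the C1 inhibitor, fell from 516, 504 and 501 to 76.5, 76.8 and 75.4 FPKM in 1°BAT and from 460, 496 and 457 to 383, 371 and 366 FPKM in 1°vWAT (estimate -2.38 ± 0.05, limma adjusted p = 2.37e-10). *C1s1*, a protease of the classical pathway, had an estimate of -2.42 ± 0.11. *Cxcl12*, a chemokine of stromal cells, fell in 1°BAT from 342, 326 and 350 to 30.9, 31.1 and 27.4 FPKM and rose in 1°vWAT from 186, 169 and 178 to 241, 236 and 243 FPKM. The 1°BAT libraries were above all others at d0 and below all others at d3 (estimate -3.90 ± 0.07, limma adjusted p = 1.28e-10). *Il11*, a cytokine of the IL6 family, was called higher (2.96 ± 0.20), as it fell from 110, 150 and 144 to 0.878, 0.769 and 0.613 FPKM in 1°vWAT, a larger fall than from 14.1, 13.9 and 13.6 to 0.804, 0.235 and 0.535 FPKM in 1°BAT. Interferon-stimulated genes were called lower in 10 of 18 and higher in 1 (median -0.66). The summed FPKM of 17 macrophage markers, cells that also make complement, was 193 to 241 in 1°BAT d0, 172 to 208 in 1°BAT d3, 444 to 510 in 1°vWAT d0 and 706 to 762 in 1°vWAT d3, and its part in the complement and interferon results was not tested.

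Lists tied to the agents in the media showed no single direction, apart from the cAMP list. Thyroid hormone response genes were called higher in 5 of 13 tested members and lower in 4 (median 0.18), glucocorticoid response genes higher in 5 of 17 and lower in 6 (median -0.01), and prostaglandin genes higher in 6 of 15 and lower in 3 (median 0.21). cAMP response genes were called higher in 11 of 19 and lower in 4 (median 0.76), against 24.9% and 28.1% of all genes. By its median the cAMP list fell in both depots, by -0.25 in 1°BAT and -0.74 in 1°vWAT. Its median gap was -1.05 at d0 and 0.04 at d3. In 1°BAT 8 members rose and 9 fell, and in 1°vWAT 3 rose and 12 fell. IBMX raises cAMP, whether 1°BAT received it is the point on which the sources differ, and its part was not tested. *Thra*, a thyroid hormone receptor, fell in 1°BAT from 56.5, 56.2 and 56.2 to 27.6, 26.8 and 28.4 FPKM and rose in 1°vWAT from 37.8, 36.7 and 36.6 to 52.7, 64.8 and 62.5 FPKM (estimate -1.68 ± 0.09). *Dio3*, the imprinted deiodinase that inactivates thyroid hormone, fell in both depots (estimate -1.22 ± 0.16, whose sign turned on a square root scale). *Fkbp5*, a glucocorticoid-induced chaperone, rose to 52.5, 45.1 and 47.8 FPKM in 1°BAT and 82.0, 76.6 and 74.8 FPKM in 1°vWAT from overlapping d0 levels (estimate -0.74 ± 0.09), whereas *Lcn2* (2.63 ± 0.12) and *Mt2* (1.55 ± 0.11), also on the glucocorticoid list, were called higher, the former not on a square root scale. *Fos*, an immediate early transcription factor, rose in 1°BAT from 12.5, 10.4 and 11.2 to 34.1, 28.9 and 32.7 FPKM and fell in 1°vWAT from 21.6, 25.4 and 31.2 to 14.1, 16.9 and 16.1 FPKM, and its estimate was 2.1 ± 0.17. *Crem*, a cAMP-responsive modulator, took the same course (1.84 ± 0.16).

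Stress response genes were called higher in 13 of 20 and lower in 5 (median 0.68), against 24.9% and 28.1% of all genes. Of the 20, 12 fell in 1°BAT and 17 in 1°vWAT. *Hmox1*, heme oxygenase, rose from 162, 151 and 152 to 271, 258 and 271 FPKM in 1°BAT and fell from 714, 932 and 837 to 152, 163 and 159 FPKM in 1°vWAT. The 1°vWAT d0 libraries were above all others, and at d3 the 1°vWAT libraries lay within the range of 1°BAT d0 or just above it (estimate 3.15 ± 0.11, limma adjusted p = 5.89e-09). *Slc7a11*, the cystine transporter (2.74 ± 0.25), and *Srxn1*, sulfiredoxin (2.01 ± 0.13), targets of the oxidative stress factor NRF2 like *Hmox1*, fell in 1°vWAT. *Sdf2l1*, a chaperone cofactor of the endoplasmic reticulum, was called lower (-1.75 ± 0.08).

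Among genes outside these lists, the largest estimates came from several kinds of course. *Mmd*, a membrane protein gene named for macrophages, rose from 45.6, 47.0 and 48.4 to 329, 323 and 326 FPKM in 1°BAT and fell from 403, 394 and 414 to 285, 292 and 278 FPKM in 1°vWAT, where it had been high from the start (estimate 3.27 ± 0.05, limma adjusted p = 2.33e-11). *Fam83a* rose in 1°BAT from 0.678, 0.793 and 0.673 to 26.6, 27.6 and 24.3 FPKM, near the 18.9, 22.4 and 20.8 FPKM that 1°vWAT already held at d0 (estimate 4.09 ± 0.13). All 1°BAT d3 libraries of *Fam83a* lay just above the 1°vWAT libraries, and *Fam110c* took a like course (estimate 3.61 ± 0.08). *Olr1*, the receptor for oxidised LDL, rose in 1°BAT and fell in 1°vWAT (estimate 4.15 ± 0.31). *Star*, which moves cholesterol into mitochondria for steroid synthesis, was under 1 FPKM in every 1°BAT library and fell in 1°vWAT from 71.5, 84.7 and 87.9 to 5.92, 6.77 and 5.25 FPKM (estimate 3.69 ± 0.16).

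At the other end, *Folh1*, a glutamate carboxypeptidase, rose in 1°vWAT from 0.540, 0.557 and 1.04 to 34.8, 33.0 and 38.4 FPKM and was at most 0.509 FPKM in any 1°BAT library (estimate -4.10 ± 0.16). *Clec3b*, which codes for tetranectin, went from 21.8, 20.7 and 27.3 to 0.401, 0.578 and 0.178 FPKM in 1°BAT and from 7.61, 11 and 10.7 to 16.5, 14.5 and 13.3 FPKM in 1°vWAT (estimate -4.69 ± 0.22). *Gpr153*, an orphan receptor gene, had the lowest estimate of the named genes (-6.68 ± 0.22), but it rests on 1°vWAT d0 libraries that all list it at 0. In the 1°vWAT d0 siH19 libraries the gene was at 0, 0 and 45.9 FPKM, so that a 0 and a high value stood side by side in the same group. *S100a8* and *S100a9*, neutrophil genes, were called higher with limma adjusted p of 0.0376 and 0.0384, from 1°vWAT d0 values of 3.55, 184 and 77.6 FPKM and 1.04, 175 and 91.0 FPKM that differ widely between libraries. The call for *S100a8* was lost in 11 of 12 fits and that for *S100a9* in 9 of 9 fits that left out a single library. *S100a9* met the minimum FPKM only through the 1°vWAT d0 libraries, so without any 1 of them it was not tested.

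Developmental transcription factors were called lower in 15 of 23 tested members and higher in 1 (median -0.71), and Hox genes lower in 7 of 27 and higher in 3 (median -0.31). The share of Hox genes called was 37.0% and that of all genes 53.0%, with 28.1% called lower. Without 1°vWAT d0 replicate 1 or 3, 0 developmental factors were called higher. *Osr1*, an early mesoderm factor, fell in 1°BAT from 12.5, 12.1 and 11.8 to 2.03, 2.04 and 2.98 FPKM and rose in 1°vWAT from 17.5, 15.7 and 15.4 to 48.9, 51.8 and 55.4 FPKM (estimate -3.60 ± 0.14). *Tcf21*, a factor of visceral fat, was at 36.6, 36.3 and 37.4 and 35.3, 36.7 and 37.5 FPKM at d0 and d3 in 1°vWAT and under 1 FPKM in 1°BAT. Its estimate was -0.46 ± 0.13. *Hoxb8* rose in both depots and more in 1°BAT (1.04 ± 0.11), and *Hoxc9*, a white fat marker, was not called (-0.26 ± 0.17, limma adjusted p = 0.244).

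Imprinted genes, which are expressed from a single parental copy and which the study centres on, were called in both directions. Paternally expressed genes (PEGs) were called lower in 10 of 23 tested members and higher in 5 (median -0.36), and maternally expressed genes (MEGs) lower in 11 of 25 and higher in 4 (median -0.14), against 28.1% lower and 24.9% higher over all genes (median -0.04). In all 65.2% of the PEGs and 60.0% of the MEGs were called, against 53.0% of all genes. The MEGs called higher numbered 2 without 1°BAT d0 replicate 1 or 3, 1°BAT d3 replicate 2 or 1°vWAT d3 replicate 2. *H19*, the maternally expressed lncRNA that is knocked down in the other libraries of the series, was at 108, 160 and 122 FPKM in 1°BAT d0, 99.7, 86.4 and 83.2 in 1°BAT d3, 12.3, 11.3 and 11.6 in 1°vWAT d0 and 8.67, 8.19 and 8.90 in 1°vWAT d3. Every 1°BAT library was far above every 1°vWAT library, the gene fell in both depots, and its interaction was not called (-0.11 ± 0.17, limma adjusted p = 0.622). *Igf2*, its paternally expressed neighbour, showed the same depot order, with 37.4, 46.4 and 43.8 FPKM in 1°BAT d0, 15.4, 13.1 and 15.2 in 1°BAT d3, 3.90, 4.13 and 5.42 in 1°vWAT d0 and 1.44, 2.48 and 2.82 in 1°vWAT d3, and an estimate of -0.71 ± 0.24 (limma adjusted p = 0.0261), a call that was lost in 7 of 12 fits without 1 library.

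Several PEGs moved apart in the depots. *Nnat* fell in 1°BAT from 27.8, 26.4 and 30.9 to 11.1, 9.22 and 10.4 FPKM and rose in 1°vWAT from 2.81, 5.68 and 5.07 to 7.08, 7.28 and 5.95 FPKM, so that the depots were closer at d3 than at d0 (estimate -1.91 ± 0.25). *Sgce* fell in 1°BAT from 54.1, 56.3 and 55.6 to 17.9, 16.1 and 18.1 FPKM and was at 45.2, 43.0 and 46.1 and 46.2, 42.6 and 43.1 FPKM at d0 and d3 in 1°vWAT, which overlapped (estimate -1.59 ± 0.07). *Peg3* (-1.01 ± 0.16) was called lower because it rose in 1°vWAT, and *Mest* was not called (-0.13 ± 0.25). Of the MEGs, *Cdkn1c*, a cell cycle inhibitor, rose in both depots, to 10.9, 8.31 and 8.02 FPKM in 1°BAT and 23.6, 24.6 and 20.5 FPKM in 1°vWAT (estimate -1.86 ± 0.26), and *Rian*, a lncRNA of the *Dlk1*-*Dio3* domain, fell in both and more in 1°BAT (-1.29 ± 0.13).

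Markers of other cell types that a stromal-vascular culture can hold also differed between the groups, and their part in the results for other genes was not tested. Mesothelial markers had the highest median estimate of all lists (1.81, 9 of 10 called higher, against 24.9% of all genes). Their summed FPKM was 5.10 to 5.99 in 1°BAT d0, 1.37 to 3.45 in 1°BAT d3, 224 to 270 in 1°vWAT d0 and 39.2 to 60.7 in 1°vWAT d3. The estimates are positive because the genes fell in 1°vWAT, and 5 of the 11 listed markers were at 0 in all 1°BAT d0 libraries. *Upk1b*, a uroplakin of mesothelium, fell there from 80.6, 81.4 and 91.3 to 17.9, 17.1 and 14.7 FPKM and was listed at 0 in all 1°BAT d0 libraries. *Upk3b* (day change -2.56 in 1°vWAT) and *Lrrn4* (-2.26) fell alike.

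Macrophage markers were called lower in 13 of 17 tested members and higher in 0 (median -0.70, with 0 higher at an unadjusted p under 0.05 in limma). No listed macrophage marker was at 0 in all libraries of a group. *Mrc1*, the mannose receptor, went from 1.79, 2.43 and 2.98 to 1.33, 1.03 and 1.09 FPKM in 1°BAT and from 4.11, 4.82 and 4.22 to 9.14, 8.71 and 9.37 FPKM in 1°vWAT (estimate -1.56 ± 0.17), and *Adgre1*, which codes for F4/80, had an estimate of -1.10 ± 0.13. Skeletal muscle genes, of a lineage that shares an embryonic origin with brown fat, summed to 509 to 840 FPKM in 1°BAT d0, 369 to 393 in 1°BAT d3, 10.4 to 13.3 in 1°vWAT d0 and 8.44 to 15.8 in 1°vWAT d3. Of 15 tested skeletal muscle genes 3 were called lower. Leaving out single libraries moved that count from 1, without 1°BAT d0 replicate 2, to 7, without 1°BAT d3 replicate 1, and without 1°BAT d0 replicate 1 or 3 it was 6 and 5. *Tnnc2*, fast troponin C, was at 22.8, 33.7 and 24.5 FPKM in 1°BAT d0 and 13.2, 11.4 and 12.5 in 1°BAT d3, against no more than 0.418 FPKM in any 1°vWAT library. Endothelial markers lay between 36.6 and 49.3 FPKM in sum in all 12 libraries, with 1 of 9 called higher and 2 lower. The flat sum hides their day changes. Of the 9 tested, 7 fell and 1 rose in 1°BAT (median day change -0.85), and 4 fell and 2 rose in 1°vWAT (-0.26). Without any 1 of the 1°vWAT d0 libraries 0 endothelial markers were called higher, and without 1°vWAT d3 replicate 1 or 2 there was 1 called lower. Cell cycle genes were called lower in 12 of 30 and higher in 2 (median -0.27), and 23 of them fell in 1°BAT and 17 in 1°vWAT. The share of cell cycle genes called was 46.7%, against 53.0% of all genes. In the siH19 libraries 2 of them were called higher and 1 lower (median 0.02). Over all genes 24.9% were called higher and 28.1% lower in siCtrl.

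**Figure D4:**
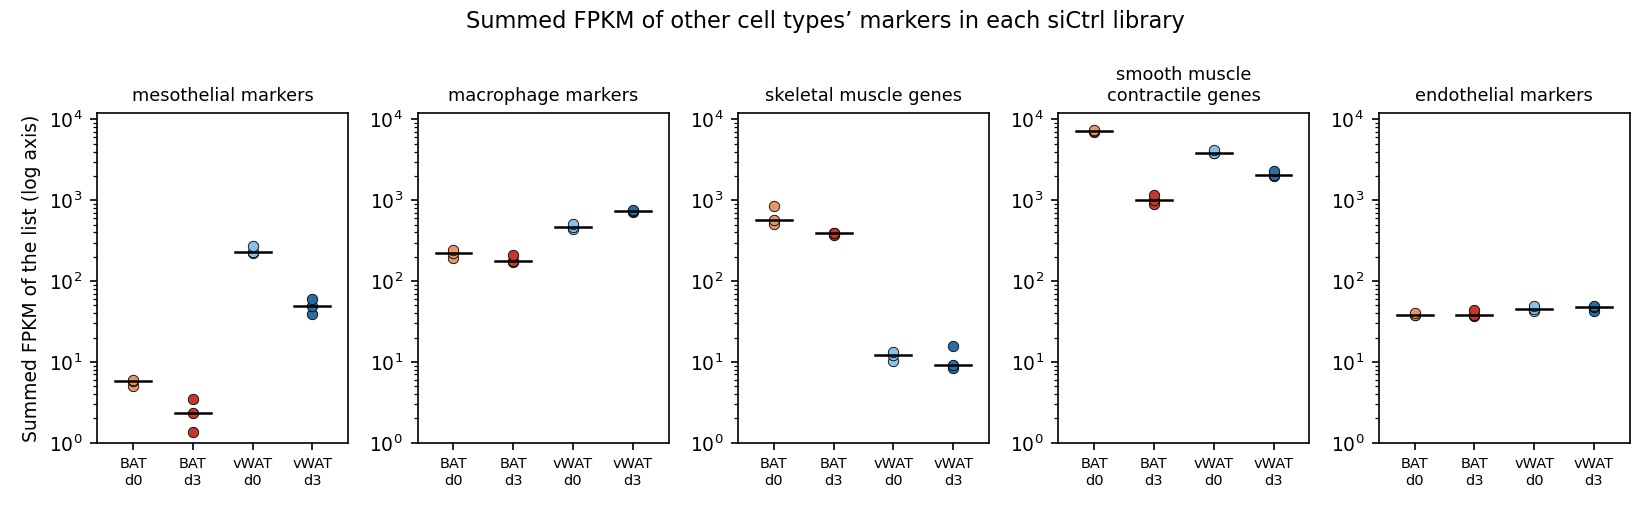
Summed FPKM of the marker genes of 5 other cell types in each siCtrl library (y axis, log scale), 3 points per group, 1 per library, with the line at the middle library. Mesothelial markers are 224 to 270 in 1°vWAT d0 and at most 5.99 in 1°BAT, smooth muscle genes fall from at least 6923 to at most 1174 in 1°BAT, and endothelial markers lie between 36.6 and 49.3 in every group.

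The interaction can also be read as a change in the gap between the depots. At d0, 2095 genes were higher in 1°BAT (14.8%) and 4814 lower (34.1%), and at d3, 3132 were higher (22.2%) and 5903 lower (41.8%). The split depends on scaling: after trimmed-mean scaling it was 2939 and 3184 at d0 and 4705 and 4105 at d3, and the median gap over all genes moved from -0.13 to -0.02 at d0 and from -0.16 to 0.02 at d3. Of the 7473 called genes 5054 had the larger gap at d3 and 2419 the larger gap at d0. The gap was called at d3 only for 2716 of them, at d0 only for 1150, at both days with the same sign for 1551 and at both days with opposite signs for 1916, of which 1065 turned from lower to higher in 1°BAT. *Plin2*, *Fabp4*, *Scd1* and *mt-Nd1* were of the last kind, and *Gpx3*, *Lox*, *Sfrp1* and *Cnn1* turned the other way.

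The 12 siH19 libraries hold the same depots and days in other cultures, and the same contrast was computed in them. Of 14055 genes tested there, 3227 were called higher in 1°BAT (23.0%) and 2785 lower (19.8%). Of the 7397 genes called in the siCtrl libraries that were tested in both, 7038 (95.1%) had an estimate of the same sign in the siH19 libraries, against 82.2% of all 13789 genes tested in both, and 4997 (67.6%) were called with the same sign. Across those 13789 genes the estimates of both sets had a Pearson r of 0.75 and a Spearman rho of 0.81. This is a correlation across genes, which are not independent replicates, and the siH19 libraries share the depots, media and library sets of the controls. Over the 14111 genes tested in siCtrl, the median size of the day change in the siH19 libraries was 0.53 in 1°BAT and 0.43 in 1°vWAT. Of these genes 8883 (63.0%) had the larger day change in 1°BAT. For the 4003 genes called in siCtrl that moved the same way in both control depots, the medians were 1.28 and 0.83. Those 4003 were chosen by their siCtrl values, by which 3465 already had the larger change in 1°BAT.

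A direct test of the difference between the siRNAs over all 24 libraries called 254 of 14694 genes as higher in siCtrl (1.73%) and 740 as lower (5.04%), and 377 and 548 after trimmed-mean scaling. The median estimate was 1.76 in siCtrl and 1.22 in siH19 for brown fat effectors (difference called for 7 of 19), 0.98 and 0.68 for nuclear OxPhos subunits (22 of 74), -1.59 and -1.06 for smooth muscle genes (10 of 17) and -1.21 and -0.62 for matrix proteases, inhibitors and crosslinkers (17 of 33). *Cidea* had an estimate of 4.16 in siCtrl and 2.21 in siH19 (limma adjusted p of the difference = 0.000153), and *Lox* -2.31 and -1.26 (2.09e-05). *Thrsp* had estimates of opposite sign, 1.2 and -0.72 (0.000152). In the siCtrl libraries *Cidea* and *Ucp1* met the minimum FPKM only through 1°BAT d3, where they were high. Their differences are therefore given as descriptions, and both are among the 7 effectors. For *H19* itself the siH19 estimate was 2.00 against -0.11 in siCtrl, with siH19 values of 2.82, 5.20 and 5.05 FPKM in 1°BAT d0 and 12, 12.1 and 16.9 in 1°BAT d3 and 1.23, 0.630 and 1.76 and 0.327, 0.291 and 0.966 in 1°vWAT, all below the siCtrl values of the same group. Interferon-stimulated genes had a median of -0.66 in siCtrl and 0.65 in siH19, but the difference was called for 2 of 18.

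**Figure D5:**
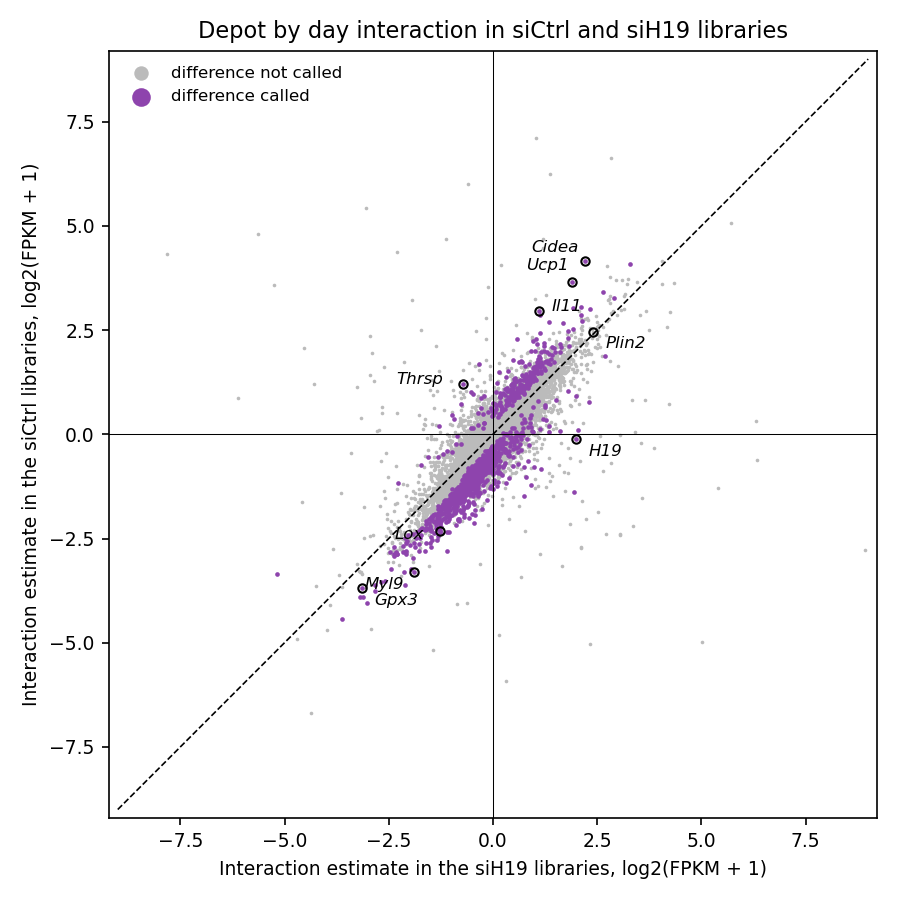
Interaction estimate in the siCtrl libraries (y axis) against that in the siH19 libraries (x axis), both on the log2(FPKM + 1) scale, 1 point per gene for the 13789 genes tested in both, with genes whose difference was called in purple and the dashed line at equal estimates. Most genes lie in the quadrants of equal sign, and *Cidea*, *Ucp1* and *Lox* lie closer to 0 in siH19.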

How the data were processed

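RNA-Seq was performed on 24 cultures, and the 12 siCtrl libraries were grouped by the depot, day and replicate in their labels. Libraries titled siKO carry the non-targeting siRNA according to their siRNA label. In the QuickNGS pipeline the authors mapped reads to GRCm38 with TopHat2 2.0.10, and Cufflinks (2.2.1 in the submitters' notes) gave a value for each Ensembl gene. The sources differ on the kit and on whether reads were paired, and whether strand was used in counting is not given in the sources used here, so reads of overlapping genes cannot be told apart. The deposited table names no unit and holds no counts, its values were read as FPKM because the authors plot these data as FPKM, and 0 of its columns were left out. FPKM are relative to each library's total, so an increase in some abundant genes pulls the rest down. Absolute depth is unknown, and precision was judged from the 3 replicates of a group, which nothing says were separate isolations. Replicates correlated across genes at r = 0.974 to 0.979, and identical values above 0 made up 0.0053% or less.

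Values were analysed as log2(FPKM + 1) with limma 3.58.1 (R 4.3.3, intensity trend, Benjamini-Hochberg adjustment) in 1 fit of 4 group means over 12 libraries, for genes at 1 FPKM or more in 3 or more libraries. The siH19 contrast used the other 12 libraries and the difference between siRNAs all 24. Summaries used Python 3.11.15. On data simulated for the siCtrl interaction from these libraries (13583 genes), 87% of planted changes of 1 and 53% of 0.5 on the log2 scale were recovered, with 13 false calls and 0 sign errors. The noise was normal and independent between libraries. Changes were planted only in genes with a mean log2(FPKM + 1) above 3, so recovery among lower genes was not measured. Genes whose mean without an interaction would be below 0 were left out. The 200 planted genes are far fewer than the 7473 called in the data. The adjusted p depends on how many genes change, so these rates do not carry over to the calls.

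The comparison, the gene lists and the genes named were chosen with earlier results of these data known. Named genes were those called with a mean of at least 5 FPKM in a group that had the 12 largest or smallest estimates, the 5 largest or smallest among genes moving in opposite directions, up to 4 called members each way of every list, *H19* and the genes the study names. A total of 267 genes met this rule and 130 were printed, and some results are not reported here. Alternatives were another pseudocount (0.1), no filter, trimmed-mean scaling, a square root scale, a minimum fold change of 1.3, no intensity trend, a replicate block, all 24 libraries in 1 fit and leaving out each library. No sequence is shown, since the measurements are per gene.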

Additional observations from a re-analysis of the deposited data

Results flagged for a closer look

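Results are listed here because effects under the same contrast differed between groups, each by a test of the difference itself. The day change differed between 1°BAT and 1°vWAT for 7473 genes, and 790 of these moved in opposite directions. The interaction differed between siCtrl and siH19 for 994 of 14694 genes, as higher in siCtrl for 1.73% and lower for 5.04%. Of the 130 genes named in the report 52 were among them. Most of the 130 were picked for a called siCtrl estimate, which enters this difference, so their share cannot be set against that of all genes. Values below are the siCtrl estimate minus the siH19 estimate on the log2(FPKM + 1) scale, all called by limma over 24 libraries.

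Among brown fat and adipogenic factors the difference was 1.75 for *Ucp1*, 1.95 for *Cidea*, 0.90 for *Elovl3*, 0.56 for *Ppargc1b*, 1.28 for *Mlxipl* and 0.64 for *Srebf1*, and it was -0.89 for *Lhx8*, -1.07 for *Cebpd* and -0.55 for *Klf4*. The values for *Ucp1* and *Cidea* are descriptions, since both met the minimum FPKM in the siCtrl libraries only through 1°BAT d3. For *Lhx8* the interaction was called in the siH19 libraries (0.96) and not in the siCtrl libraries (0.06). In lipid storage it was 0.77 for *Scd1*, 1.10 for *Acacb*, 1.92 for *Thrsp*, 0.76 for *Gpat3*, 0.94 for *Plin5* and 0.72 for *Slc27a1*. Among fuel oxidation genes it was 0.58 for *Slc25a20*, 0.49 for *Hadhb*, 0.50 for *Sucla2*, 0.41 for *Pdhb*, 0.68 for *Ogdh*, 0.53 for *Uqcrc2* and 0.60 for *Hk2*.

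In the precursor, matrix and contractile genes the difference was -0.54 for *Pdgfra*, -0.71 for *Pdgfrb*, -0.74 for *Ly6a*, -0.56 for *Col3a1*, -1.03 for *Col28a1*, -1.05 for *Lox*, -1.02 for *Mmp23*, -0.72 for *Plod2*, -1.53 for *Cnn1*, -1.42 for *Myl9* and -1.27 for *Actg2*. In signalling and secreted genes it was -1.17 for *Inhbb*, -0.78 for *Tgfb3*, -0.72 for *Sfrp1*, -0.38 for *Igfbp4*, -0.53 for *Igfbp6*, -0.79 for *Cxcl12*, -0.46 for *Serping1*, -0.38 for *Agt*, -0.55 for *Gpx3* and 1.85 for *Il11*. In imprinted and other genes it was -2.11 for *H19*, -0.98 for *Dio3*, -1.41 for *Nnat*, -0.41 for *Sgce*, -0.74 for *Rian*, -0.78 for *Osr1*, -0.59 for *Sdf2l1*, 0.36 for *Mmd* and 0.80 for *Fam83a*. *H19* is the target of the siRNA.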

How the results depend on the processing

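The count of called interactions lay between 6358 (minimum fold change of 1.3) and 7926 (no filter) over the settings, was 7616 with all 24 libraries in 1 fit, and ranged from 6970 to 7187 without 1 library. The count of depot gaps at d0 fell to 4282 with a minimum fold change of 1.3, from 6909. The other counts over all genes stayed within 1.5 times their value. Of 84 counts of list members called higher or lower, 18 moved by more under some setting, 13 of them without 1 library, and most of these are counts under 5. Estimates that changed sign were *Slc22a3* (0.169), *Wt1* (-0.0891) and *Zic1* (0.31) with a pseudocount of 0.1, *Cxcl16* (0.12), *Dio3* (0.38), *Ptgis* (2.63), *Gata2* (0.0131) and *Saa3* (11.7) on the square root scale, and, without 1 library, *H19* (-0.236 to 0.048), *Igf2r* (-0.0137 to 0.213) and *Mest* (-0.273 to 0.0167, with 0.0144 and 0.0161 among them). The cause of these was not tested. The 5 that turned on the square root scale had been called, and of these *Ptgis* and *Saa3* were called in the other direction there, while the other 6 had not been called. Replicate numbers are shared across the groups, and the deviations of libraries with the same number correlated at -0.103 to 0.052. Those of libraries with different numbers correlated at -0.083 to 0.104. The ranges overlap, so they cannot show whether equal numbers mark a shared isolation. With a replicate block, 7265 interactions were called. Scaling moved the split between higher and lower calls of the depot gaps and of the interaction as given in the report, and of the difference between siRNAs from 254 and 740 to 377 and 548. The medians of 40 of 42 lists were higher under that scaling, with shifts of -0.015 to 0.120 (median 0.095), and that of the glucocorticoid list changed sign, from -0.005 to 0.095. Without fragment counts, the number of fragments behind low genes is unknown.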
